A study of Mus musculus with 6 samples.

Results

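Kcnj16 was followed as a virtual viewpoint: every contact of the gene with the rest of the captured region was read out of Capture Hi-C maps of 6 mouse genotypes. The viewpoint was set by position as the 7 bins of 10 kb from 110820001 to 110890000 of mouse chromosome 11 (mm9), out of the 587 bins from 109010001 to 114880000 that each map covers. A contact was counted where the partner bin lay 2 or more bins away, which gave 132848 contacts in WT and 117593 in deltaBor. Dup-C had 120849, Dup-S 99304, Dup-L 132900 and Dup-LdeltaBor 128656. Each genotype is represented by a single library of E12.5 limb buds. WT is the control, and deltaBor lacks the boundary between the domain of the Kcnj genes and that of Sox9. A short (Dup-S), a long (Dup-L) and the longest (Dup-C) duplication were studied, and Dup-LdeltaBor combines that of Dup-L with loss of the boundary. The labels state neither zygosity nor how many embryos went into a library. By the labels alone, a mutant library may also hold unaltered copies of the locus. For deltaBor, the contact sum of the lost bin is given below. Other samples were not analysed here.

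Kcnj16 encodes Kir5.1, a subunit of inward rectifier potassium channels, best known from kidney tubules and brain, where it pairs with Kir4.1. Its neighbour Kcnj2 encodes Kir2.1, another inward rectifier. Sox9, on the other side of the boundary, encodes a transcription factor needed for cartilage and testis formation and is controlled by enhancers spread over a long gene desert. A topological domain is a stretch of chromatin that contacts itself more than its surroundings, and a boundary between domains limits contacts of a promoter with enhancers on the far side. In a tandem duplication the repeated copies meet at a junction, which can bring together a gene and chromatin that are far apart in the normal genome.

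Where the viewpoint lay in each mutant was read from contact sums per bin. The duplicated segment of Dup-C ran from 110770001 to 112520000 and contained the whole viewpoint. That of Dup-L and Dup-LdeltaBor ran from 110960001 to the same end, so that Kcnj16 lay 70 kb outside it. That of Dup-S, 111750001 to 112170000, lay beyond the boundary. The bin lost in deltaBor was 111390001 to 111400000, 500 kb from the telomeric edge of the viewpoint. Its contact sum was 2.44e-05 times that of WT, relative to the median bin of the map. Contacts of the bin before it, where the boundary minimum lies, were largely lost too. Together these bins, 111380001 to 111400000, held 68 contacts of Kcnj16 in deltaBor and 770 in WT, a share fold of 0.0998 (0.0767 to 0.128). In the GRCm38 gene table, Kcnj2 is the next protein-coding gene after Kcnj16 on the way to Sox9. With the published extents of the duplications, in which Dup-C includes Kcnj2 and Dup-L does not, this places Kcnj2 in the 70 kb stretch from 110890001 to 110960000. Gene positions on mm9 other than that of the viewpoint were not used.

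Contact counts of the viewpoint itself were compared next. After scaling the libraries on contacts outside the Dup-C segment, the viewpoint of Dup-C had 2.26 times the contacts of WT. The scaled ratio in the mutants that do not duplicate the gene ran from 1.07 (Dup-L) to 1.13 (Dup-S). Contacts of viewpoint bins with themselves, which were not otherwise used, gave 2.07 in Dup-C and 1.01 to 1.13 in the other mutants. Among the 5 mutants, Dup-C alone lay near 2 on both measures.

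All values below are shares of the viewpoint's own contacts, which removes library depth and the copy number of Kcnj16 but not the copy number of the partner. KR-normalised values (Knight-Ruiz balancing, in which all bins have equal sums) are given beside them because balancing lowers the weight of duplicated partners. Folds are ratios of shares, and 95% intervals are exact binomial (Clopper-Pearson) intervals. The intervals cover counting error only, and no test across genotypes was possible with 1 library each. The maps held 4144258 (Dup-C) to 8965219 (Dup-LdeltaBor) contacts in all.

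In WT, Kcnj16 kept most of its contacts inside its own domain. The centromeric-side domain, 110200001 to 111380000, held 75.2% (75.0 to 75.5) of them, and the telomeric-side domain, 111390001 to 112650000, held 10.3% (10.2 to 10.5). The start of the centromeric-side domain depends on the 500 kb diamond. With a 200 kb diamond a minimum at 110920001 to 110930000 lay between Kcnj16 and the boundary. The far end of the telomeric-side domain is a shallow insulation minimum of WT (500 kb diamond), at -0.08 log2. The boundary scored -1.46 and the next minimum, at 113030001, -0.91. Folds with the domain taken to that next minimum are given in the last section. The profile was uneven on either side of the gene. The 570 kb from 110200001 to 110770000 on the centromeric side took 33.6% of the contacts, or 0.589% per 10 kb, and the 420 kb from 110960001 to the boundary took 16.9%, or 0.403% per 10 kb. The Kcnj2 stretch beside the gene took 8.92%.

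The strongest contacts of Kcnj16 in WT relative to their distance formed a single block. The 5 bins with the highest KR signal over the mean of all pairs at the same distance, out of 524 ranked, were the adjacent bins from 110400001 to 110450000, 370 to 420 kb from the gene on the centromeric side. Their signal ranged from 2.12 to 2.45 times the distance mean, and they held 3.64% (3.54 to 3.74) of the viewpoint's contacts. Per bin this block had 1.84 times the contacts of the 100 kb on its far side and 1.00 times those of the 100 kb on its near side, so contacts were level on the side of the gene and dropped beyond the block. An insulation minimum of WT with a 200 kb diamond lay next to it, at 110390001 to 110400000. The block held the same 5 top ranks in Dup-S, Dup-L and Dup-LdeltaBor, ranks 2 to 12 in deltaBor and ranks 66 to 82 in Dup-C. Its KR signal in Dup-C was still 1.74 times the distance mean, against 2.25 in WT. The ranks use distances on the reference.

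Across the boundary the WT profile dropped within a short distance. The 50 kb before the boundary bin held 0.375% of the contacts per 10 kb and the 50 kb after the lost bin 0.158%, a ratio of 0.422 (0.392 to 0.454). Beyond it the profile was nearly flat: from 111510001 to 112510000, windows of 100 kb took 0.690% to 0.827% of the contacts each. The end of the later duplications, at 112520000, was not visible in WT, where the ratio of the 50 kb after it to the 50 kb before it was 0.986 (0.858 to 1.13).

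**Figure D1:**
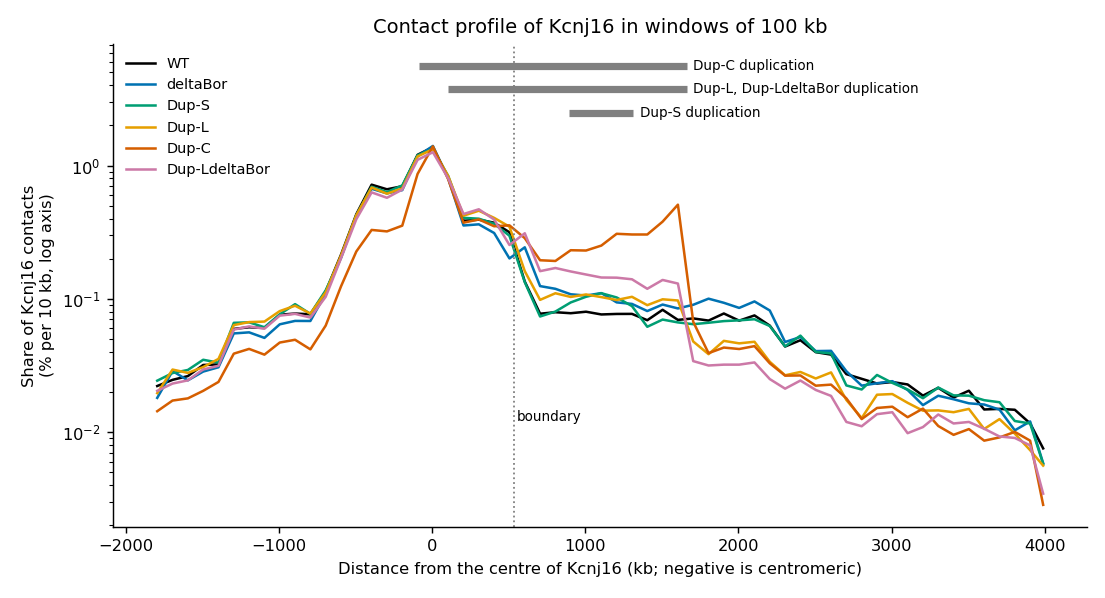
Share of Kcnj16 contacts per 10 kb (log axis) in windows of 100 kb, against distance from the centre of the gene, for the 6 libraries; grey bars mark the duplicated segments and the dotted line the boundary. In Dup-C the line climbs towards the far end of the duplication and falls to 0.0671% per 10 kb in the window that crosses it, while on the centromeric side it lies below the other 5.

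Dup-C addresses what happens to the contacts of Kcnj16 when the gene itself is part of a duplication that spans the boundary. The telomeric-side domain took 33.4% (33.1 to 33.6) of the viewpoint's contacts, against 10.3% in WT, a fold of 3.23 (3.17 to 3.29). With KR-normalised values it took 27.6%, against 9.18%, a fold of 3.00. Contacts scaled between libraries, which keep the larger total of the viewpoint, gave a fold of 7.32, and a denominator of contacts centromeric of the segment gave 6.24. Taken alone, the 7 viewpoint bins had share folds of 3.10 to 3.35. In single bins the share ran from 29.5% to 32.2% in Dup-C and from 9.11% to 10.0% in WT, lower than the pooled shares because contacts between the bins of the gene then count for both of them. The bins are adjacent and come from the same single library per genotype, so they are not replicates.

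The gain of Dup-C grew with distance from the gene. The piece from 111400001 to 111750000, nearest the boundary, held 7.94% of the contacts (fold 2.33, 2.25 to 2.42). The middle piece, 111750001 to 112170000, held 11.2% (fold 3.43, 3.31 to 3.55). The piece farthest away on the reference, 112170001 to 112520000, held 13.3% (fold 5.26, 5.07 to 5.46). With KR-normalised values the folds were 2.12, 3.17 and 4.98, in the same order. In WT the 3 pieces ran the other way, from 3.40% through 3.27% to 2.54%.

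The gain was steepest in the last 100 kb of the duplicated segment, 112420001 to 112520000. Kcnj16 made 917 contacts there in WT (0.690% of its contacts), 987 in deltaBor (0.839%) and 650 in Dup-S (0.655%). The counts were 1262 in Dup-L (0.95%), 1573 in Dup-LdeltaBor (1.22%) and 6045 in Dup-C (5.00%). Dup-C stood apart from all others, at 7.25 times WT (6.76 to 7.78) and 5.27 times Dup-L (4.96 to 5.60). In scaled contacts these folds were 16.4 and 11.2, and with the centromeric denominator the fold over WT was 14.0. Going back from this stretch in steps of 100 kb, the fold over WT was 4.75, 4.42, 3.92 and 4.04. In 10 kb bins, the 5 highest KR signals over the distance mean in Dup-C all lay in this stretch, led by 112500001 to 112510000 at 7.88 times the mean. That bin took 0.70% of the viewpoint's contacts in Dup-C and 0.0813% in WT.

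The profile of Dup-C broke off at the end of the segment. The 50 kb before 112520000 held 2950 contacts and the 50 kb after it 197, a ratio of 0.0668 (0.0575 to 0.0772). The unduplicated rest of the telomeric-side domain, 112520001 to 112650000, on the side where Sox9 lies, took 0.500% (0.461 to 0.541) in Dup-C and 0.893% (0.843 to 0.945) in WT, a fold of 0.560 (0.507 to 0.618). In contacts scaled between libraries rather than shares, the same rest stood at 1.27 times WT (1.15 to 1.4). The total that the share is taken of was 2.26 times as large on that scale.

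**Figure D2:**
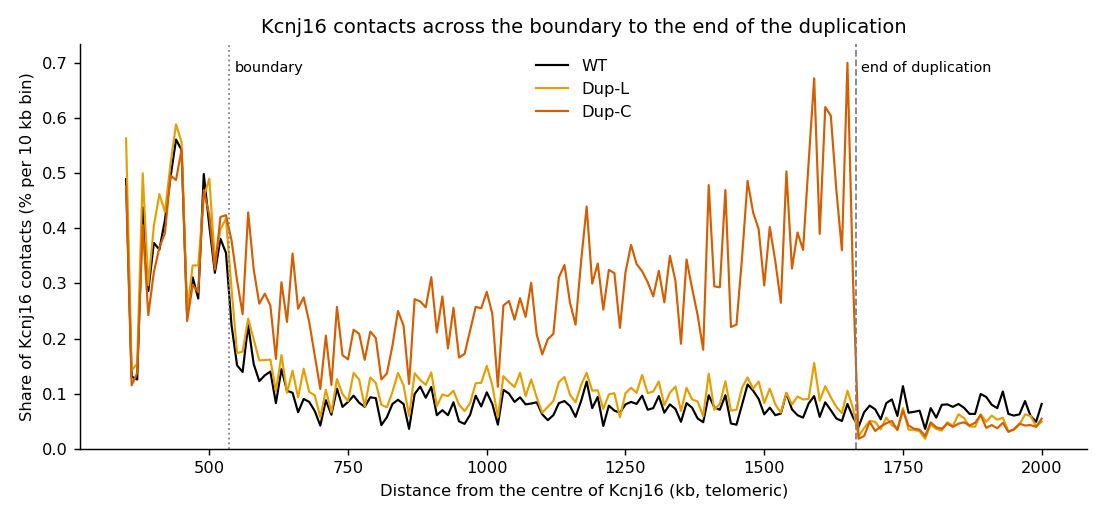
Share of Kcnj16 contacts in each 10 kb bin, against distance from the centre of the gene on the telomeric side, in WT, Dup-L and Dup-C; the dotted line is the boundary and the dashed line the end of the duplication. Dup-C reaches 0.70% just before the dashed line, while beyond the boundary WT and Dup-L stay under that value.

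The orientation of the repeat is not in the labels. If it is head to tail, the second copy of Kcnj16 lies 50 kb from the telomeric end of the first copy of the segment. Contacts were therefore set out by the distance over that junction. Pairs 50 to 90 kb apart over it had 223 scaled contacts per pair in Dup-C and 12.6 in WT. WT pairs of the viewpoint at the same linear distance had 260 on the centromeric side and 220 on the telomeric side. At 100 to 140 kb over the junction Dup-C had 222 per pair, against 185 and 122 for the WT pairs on the centromeric and telomeric sides. At 150 to 190 kb the values were 198, 155 and 89.8, and at 200 to 290 kb 159, 107 and 68.3. At 300 to 390 kb they were 133, 134 and 64.7. As a ratio to WT chromatin at the same distance on the gene's centromeric side, contacts over the junction ran from 0.858 to 1.48 up to 390 kb. The ratio was 1.05 at 400 to 490 kb and 2.58 at 500 to 590 kb. At these last distances Dup-C had 130 and 134 per pair, and WT pairs on the telomeric side 75.7 and 71.0. The telomeric values of WT, here and above, count only pairs inside the gene's own domain, so at 500 to 590 kb pairs across the boundary were left out. From 100 kb on, Dup-C lay above the WT telomeric pairs at every distance. The copies cannot be told apart in the maps, and the scaled values are not divided by copy number.

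On the centromeric side, Dup-C had lower shares. The stretch from 110200001 to 110770000 took 16.7% (16.5 to 16.9) of the contacts of Kcnj16, against 33.6% in WT, a fold of 0.496 (0.488 to 0.505), and 0.725 with KR-normalised values. A step stood at the start of the duplication: the 50 kb inside the Dup-C start held 3.11 times (2.99 to 3.24) the contacts of the 50 kb outside it, against 1.60 times in WT and 1.56 to 1.65 times in the 4 other mutants. Scaled contacts with this stretch, at 1.12 times WT (1.11 to 1.14), were nearer to WT than the 2.26 of the viewpoint as a whole. The WT block at 110400001 to 110450000 had 1.04 times (0.991 to 1.10) its WT contacts on that scale. By contrast, scaled contacts inside the segment on the near side of the boundary were 2.2 times WT from 110770001 to the gene, 2.28 within the gene, 2.26 with the Kcnj2 stretch and 2.21 with the 420 kb up to the boundary. Shares of these 4 stretches were 0.973 to 1.01 times WT.

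Counted in windows of 100 kb with at least 50 contacts in both libraries, 11 of 58 windows had at least 1.5 times their WT share in Dup-C and 32 had a share at least 1.5-fold lower. For all stretches of 70 kb across the map taken as viewpoints, the background was 8.1% of windows higher and 25.9% lower, against 19.0% and 55.2% for Kcnj16. The 11 higher windows were the 11 that lie wholly between the boundary and the end of the segment, with folds of 2.12 to 7.33. Of the lower ones, 13 lay centromeric of the gene and 19 reached past the end of the segment. These lower calls hold for shares: in scaled contacts the regions outside the segment were above WT, at 1.42 times for the outer centromeric region, 1.12 for the centromeric stretch, 1.27 for the telomeric rest and 1.32 beyond it. Scaled contacts are not divided by the copy number of Kcnj16. All 4 values lay below the 2.26 of the viewpoint as a whole on that scale. Set against Dup-L, where the same chromatin beyond the boundary is duplicated but Kcnj16 is not, Dup-C again had all 11 of these windows higher, at 1.75 to 5.24 times (background 2.77%). It had 15 windows lower, all centromeric of the gene (background 3.95%). In scaled contacts, again not divided by copy number, Dup-C stood at 1.10 times Dup-L for the centromeric stretch and 1.25 times for the outer centromeric region. The viewpoint as a whole was 2.26 times WT in Dup-C and 1.07 times WT in Dup-L on that scale.

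Dup-L addresses what Kcnj16 contacts when a duplication across the boundary starts just beyond the gene. The telomeric-side domain took 12.8% (12.6 to 12.9) of the contacts, a fold of 1.24 (1.21 to 1.26) over WT. With KR-normalised values it took 9.12%, against 9.18% in WT, a fold of 0.993 that lies on the other side of 1. The 3 duplicated pieces beyond the boundary had similar folds of 1.26, 1.33 and 1.3 from near to far, and 0.980, 1.05 and 1.05 with KR-normalised values. Shares with the duplicated 420 kb before the boundary were 18.7% against 16.9%, a fold of 1.10 (1.08 to 1.12), and 0.822 with KR-normalised values. No window of 100 kb reached a 1.5-fold higher share (background 6.21%). The fold of Dup-C over Dup-L for the telomeric-side domain was 2.61 (2.57 to 2.66), and 3.02 with KR-normalised values.

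Beyond the duplication, shares of Dup-L were lower. The unduplicated telomeric rest took 0.523% (0.485 to 0.563), a fold of 0.586 (0.533 to 0.644) over WT and 0.687 with KR-normalised values. Chromatin from 112650001 to the end of the map took 4.97% against 7.61%, a fold of 0.653 (0.633 to 0.674). Here scaled contacts were lower too, at 0.624 and 0.696 times WT. All 11 windows with a share at least 1.5-fold lower reached past the end of the segment (18.6% of 59 windows, background 9.34%). The step at 112520000 had a ratio of 0.472 (0.405 to 0.548). The centromeric stretch took 32.2% (fold 0.960, 0.947 to 0.972). There the direction turned on the other scales, at 1.08 with KR-normalised values and 1.02 (1.01 to 1.04) in scaled contacts.

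Dup-LdeltaBor against Dup-L addresses the boundary within the duplication. In Dup-LdeltaBor the telomeric-side domain took 18.4% (18.2 to 18.6) of the contacts of Kcnj16, 1.44 times Dup-L (1.41 to 1.47) and 1.78 times WT (1.74 to 1.82). With KR-normalised values the folds were 1.28 and 1.28. The ratio to Dup-L was highest next to the boundary and lower with distance: 1.70 (1.64 to 1.75) for the nearest piece, 1.43 (1.39 to 1.48) for the middle one and 1.35 (1.29 to 1.4) for the farthest. The window from 111410001 to 111510000 led, with 3.10% against 1.61% in Dup-L, a fold of 1.93 (1.83 to 2.03). Over Dup-L, 4 of 58 windows were 1.5-fold higher (background 2.02%) and 3 were lower (background 3.53%). Over WT, all 11 windows between the boundary and the end of the segment were higher (background 13.6%) and 21 windows that reached past the end of the segment were lower (background 27.6%).

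The telomeric rest was lowest of all in Dup-LdeltaBor, at 0.394% (0.361 to 0.430), or 0.441 times WT (0.397 to 0.490). Its scaled fold was 0.482, and chromatin beyond 112650001 stood at 0.539 on the same scale. All comparisons with WT share the single WT library, and those with Dup-L share the Dup-L library.

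**Figure D3:**
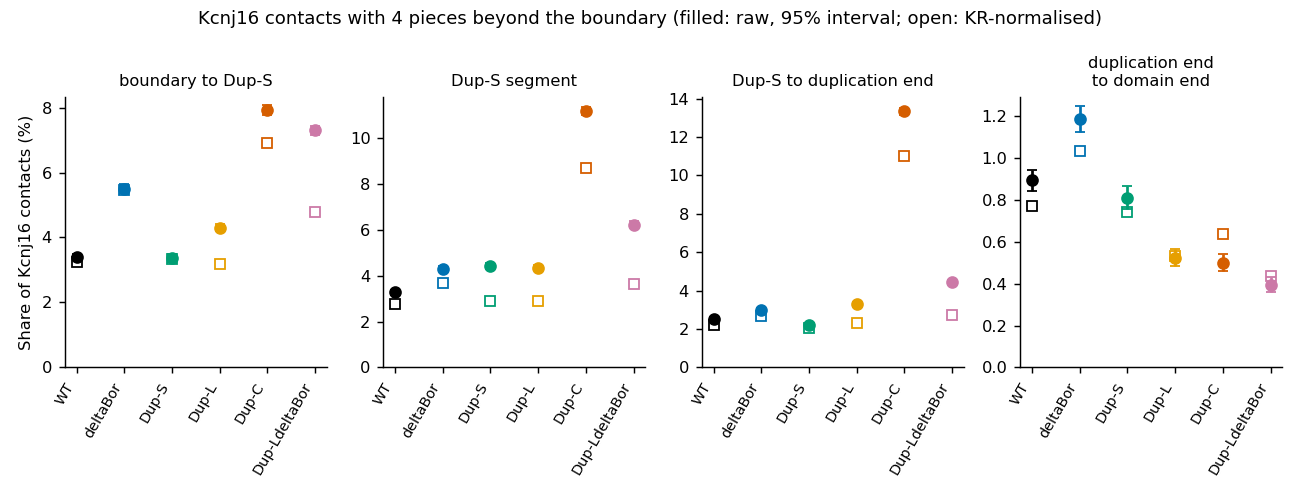
Share of Kcnj16 contacts with 4 consecutive pieces beyond the boundary in the 6 libraries; filled points are raw shares with 95% binomial intervals and open squares KR-normalised shares. Dup-C is highest in the first 3 panels (7.94%, 11.2% and 13.3%), and in the last panel deltaBor is highest at 1.19% and Dup-LdeltaBor lowest at 0.394%.

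In deltaBor, which has no duplication, contacts of Kcnj16 with the telomeric-side domain took 14.0% (13.8 to 14.2), a fold of 1.35 (1.32 to 1.38) over WT and 1.4 with KR-normalised values. There was no step at the boundary beyond counting error: the 50 kb on either side had a ratio of 0.983 (0.915 to 1.06), against 0.422 in WT and 0.987 (0.929 to 1.05) in Dup-LdeltaBor. Dup-C stood between at 0.815 (0.767 to 0.866), and Dup-S and Dup-L were near WT at 0.452 and 0.469. As in Dup-LdeltaBor over Dup-L, the fold was highest near the boundary, at 1.62 (1.55 to 1.68), then 1.32 (1.26 to 1.37) and 1.18 (1.12 to 1.24). Unlike in the long duplications, the share with the telomeric rest was higher, at 1.19% (1.12 to 1.25) and a fold of 1.33 (1.23 to 1.44). The stretch beyond it, up to the insulation minimum at 113030001, had a fold of 1.28 (1.22 to 1.34). The 3 KR bins highest over the distance mean outside the WT block lay at 113030001, 113020001 and 112790001, at 2.33, 2.25 and 2.23 times the mean. Chromatin from that minimum on, to the end of the map, had a fold of 1.01 (0.977 to 1.05).

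Within the gene's own domain, shares in deltaBor were lower. The 420 kb before the boundary took 14.97% (fold 0.884, 0.867 to 0.902), and the centromeric stretch 31.7% (fold 0.944, 0.931 to 0.957). On the scale of scaled contacts these were 0.969 and 1.03 times WT. Of 58 windows, 2 were at least 1.5-fold higher in deltaBor (background 3.47%) and 1 was lower (background 1.36%). The higher ones were the windows from 111410001 to 111610000, and the lower one contains the lost bin. These counts are near the background.

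Dup-S lies wholly beyond the boundary and does not include Kcnj16. The telomeric-side domain took 11.1% (10.9 to 11.3) of the contacts, a fold of 1.07 (1.04 to 1.10) over WT and 1.00 with KR-normalised values. The difference sat in the duplicated segment, with 4.44% against 3.27%, a fold of 1.36 (1.3 to 1.41), and 1.05 with KR-normalised values. The piece before it had a fold of 0.988 (0.944 to 1.03) and the piece after it 0.881 (0.834 to 0.929). No window was 1.5-fold higher (background 1.41%) or lower (background 0%). Shares of the centromeric-side domain were 74.2% in Dup-S and 75.2% in WT.

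Ordered by the share of Kcnj16 contacts in the telomeric-side domain, the libraries ran Dup-C (33.4%), Dup-LdeltaBor (18.4%), deltaBor (14.0%), Dup-L (12.8%), Dup-S (11.1%) and WT (10.3%). Each neighbour differed from the next beyond the counting interval, by ratios of 1.82, 1.31, 1.10, 1.15 and 1.07. With KR-normalised values the order was Dup-C (27.6%), deltaBor (12.8%), Dup-LdeltaBor (11.7%), Dup-S (9.20%), WT (9.18%) and Dup-L (9.12%). The order of deltaBor and Dup-LdeltaBor thus depended on the balancing, as did the place of Dup-L. For the WT block at 110400001 to 110450000, the order was WT (3.64%), Dup-S (3.51%), Dup-L (3.45%), deltaBor (3.40%), Dup-LdeltaBor (3.08%) and Dup-C (1.68%). The block was picked for its high signal in this same WT library, which favours WT in the order, and the counting intervals do not cover that choice. Neighbours among the first 4 did not differ beyond the counting interval, although Dup-L, at 0.949 times WT (0.911 to 0.988), and deltaBor, at 0.933 times (0.895 to 0.973), lay below WT itself. Dup-LdeltaBor and Dup-C each lay below the library before them beyond the interval. This order holds for raw shares. KR-normalised folds of the block over WT were 1.14 in Dup-L, 1.12 in Dup-LdeltaBor, 0.998 in Dup-S, 0.947 in deltaBor and 0.724 in Dup-C. Scaled contacts with the block were 1.09 times WT in Dup-S, 1.04 in Dup-C, 1.02 in deltaBor, 1.01 in Dup-L and 0.924 in Dup-LdeltaBor.

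To see where Kcnj16 differs from its surroundings, the 16 stretches of 70 kb that tile the centromeric-side domain were treated as viewpoints in the same way. In WT the share of Kcnj16 with the telomeric-side domain ranked 12th of 16, within a range of 9.72% to 23.0%. It ranked 12th in deltaBor, Dup-S, Dup-L and Dup-LdeltaBor too, and 3rd in Dup-C. Its fold in Dup-C, 3.23 (3.17 to 3.29), stood with those of its neighbours, the Kcnj2 stretch at 3.20 and the stretch from 110750001 at 3.13, above a median of 1.82 for the 16. The value of the Kcnj2 stretch lay inside the interval of Kcnj16. In Dup-L the fold of Kcnj16 ranked 13th at 1.24 against a highest of 2.79.

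The stretches most like Kcnj16 over the 6 libraries, by the root mean square difference of log2 shares, were its neighbours. That from 110750001 to 110820000, which is largely inside the Dup-C segment, differed by 0.06 and had 31.3% in Dup-C. The Kcnj2 stretch differed by 0.14 and had 34.4% in Dup-C. The third, 110190001 to 110260000, differed by 0.53 and had only 14.4% in Dup-C. Kcnj16 and Kcnj2 differed most in deltaBor, where the Kcnj2 stretch took 17.1% (1.59 times its WT share of 10.8%) and Kcnj16 14.0% (1.35 times). In Dup-LdeltaBor the folds were 1.94 and 1.78. An insulation minimum of WT with a 200 kb diamond, of -0.30 log2, lay within the Kcnj2 stretch, at 110920001 to 110930000.

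**Figure D4:**
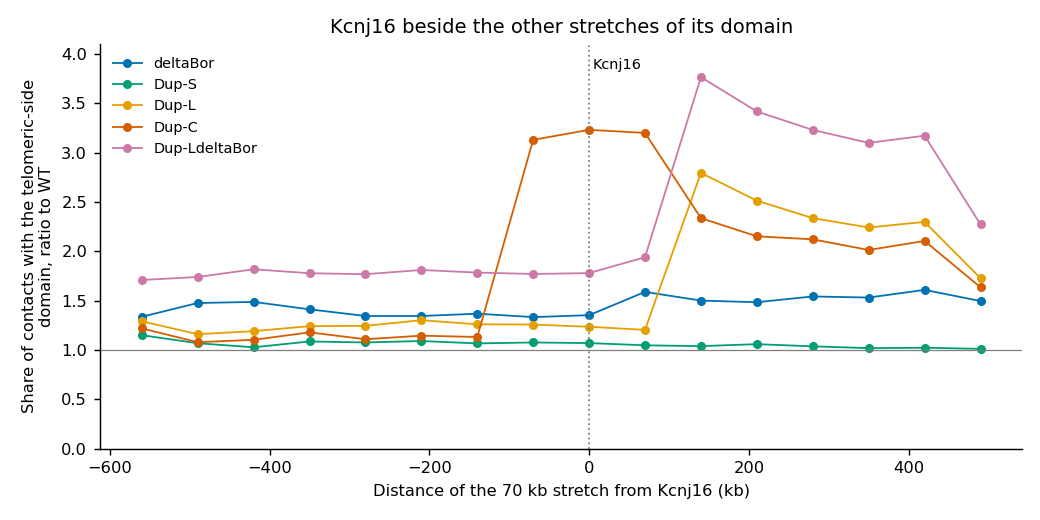
Share of contacts with the telomeric-side domain as a ratio to WT, for the 16 stretches of 70 kb in the centromeric-side domain, against their distance from Kcnj16; each line is a mutant. In Dup-C the ratio steps from 1.13 at -140 kb to 3.13 at -70 kb, whereas in Dup-L it steps from 1.2 at 70 kb to 2.79 at 140 kb, so that Kcnj16 lies above the step of Dup-C and below that of Dup-L.

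The steps in the plot of neighbouring stretches fall at the starts of the duplications. In Dup-C the fold was 1.13 for the stretch from 110680001 to 110750000 and 3.13 for the next. In Dup-L and Dup-LdeltaBor the step came only after the Kcnj2 stretch, from 1.2 to 2.79 and from 1.94 to 3.76. Kcnj16 and Kcnj2 thus lay on the low side of the step in Dup-L and on the high side in Dup-C.

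The authors' deposited difference maps, in which scaled raw contacts of the control are subtracted from those of the mutant, were read pair by pair for Kcnj16. In the authors' deposited map of Dup-C minus WT, 100% of the 70 pairs of Kcnj16 with the last 100 kb of the segment and 95.9% of the 882 pairs with the telomeric-side domain were above 0, and 55.6% of the 399 pairs with the centromeric stretch. In the authors' deposited map of Dup-L minus WT, 73.9% of the pairs with the telomeric-side domain were above 0, and 14.3% of those with the telomeric rest. The authors' deposited map of deltaBor minus WT had 77.8% and 71.4% above 0 in the same regions. In the authors' deposited map of Dup-S minus WT, 60.2% of the pairs with the telomeric-side domain were above 0. The labels do not say how the factors were chosen. These maps are weighted differences of the same raw counts used above, so they are not independent of the folds given here.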

How the data were processed

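Capture Hi-C maps of 6 mouse limb bud libraries were used, with 1 library per genotype as the genotype labels give it. The submitters' processing notes name Bowtie2 2.2.6 and the build mm9. The authors deposited raw contact counts per pair of 10 kb bins and a KR-normalised signal for the same pairs. They also deposited log2 ratio maps, which were not used for any value here, and difference maps, whose values are the authors' own. No label or header states the pair filters, the balancing tool or whether duplicates were removed, and duplicates left in would make the intervals too narrow. Positions of Dup-C and Dup-S are offsets and were placed on the bins of the other maps.

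Pairs with 1 bin in the viewpoint, 2 or more bins apart, were summed by partner; a pair inside the viewpoint counted once. Altered segments came from a circular binary segmentation statistic on bin sums (pseudocount 0.5), and domains from WT insulation minima (500 kb diamond, prominence 0.3). Scaled contacts were put on the WT depth by pairs that lie wholly centromeric or wholly telomeric of the Dup-C segment. The procedures were tested on simulated data: 6 of 6 planted segments were found within 1 bin, and 95.5% of 11799 planted window folds lay inside their interval. The simulated counts carried counting error only, so this checks the calculation and not duplicates or differences between libraries. Regions named were these pieces, the 5 windows of 100 kb with the largest gain or loss, the top 5 bins over the distance mean (at least 20 contacts, 10 or more bins away) and the 3 stretches most alike; further stretches were chosen after seeing values. The viewpoint, regions and lists were chosen with earlier results of these data known. Python 3.11.15, NumPy 2.4.6 and SciPy 1.17.1 were used. Total contacts per map ran from 4144258 to 8965219.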

Additional observations from a re-analysis of the deposited data

How the results depend on the processing

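Of 62 alternative values over the 7 folds reported for Kcnj16, 32 stayed within the counting interval, 29 moved outside it in the same direction and 1 changed side of 1. Of the 32, 6 were the 200 kb diamond, which gave the same ends of the telomeric-side domain and so could not move these folds. On the centromeric side its minimum nearest the boundary, at 110920001, would leave Kcnj16 outside that domain. The share of Kcnj16 in its own domain and the ranks among 16 stretches thus rest on the 500 kb diamond. The folds for the telomeric-side domain are over WT unless stated, and those of Dup-LdeltaBor over WT and over Dup-L stand last, in that order. KR-normalised signal gave 3.00 for Dup-C, 1.4 for deltaBor, 1.00 for Dup-S, 0.993 for Dup-L, then 1.28 and 1.28, so the fold of Dup-L lay below 1. With contacts centromeric of the Dup-C segment as denominator, the folds outside the interval were 1.44 (deltaBor), 1.27 (Dup-L), 6.24 (Dup-C), 1.95 and 1.54. Leaving out pairs under 10 bins apart moved only Dup-LdeltaBor over WT, to 1.73. Alternatives added after seeing the data were these 3. Contacts scaled outside the Dup-C segment gave 7.32 for Dup-C, 1.48 for deltaBor, 1.21 for Dup-S, 1.32 for Dup-L, then 1.94 and 1.48. A domain taken to the next minimum gave 1.04 (Dup-S), 1.11 (Dup-L), 2.67 (Dup-C), 1.5 and 1.35. Leaving out the lost bin moved Dup-LdeltaBor to 1.82 over WT and 1.47 over Dup-L. The fold of Dup-C for the last 100 kb of the segment was 6.63 with KR-normalised signal, 14.0 with the centromeric denominator, 16.4 with scaled contacts, 7.78 for 50 kb and 5.90 for 200 kb. The cause of these shifts was not tested. The middle 5 viewpoint bins and leaving out 11 bins of low or no coverage moved no fold outside its interval. No paired analysis was possible because each genotype has 1 library. Bins far from the gene held few contacts, and 3 contacts, the limit for a count of 0, are at most 0.00302% of a viewpoint's total. Counting error is the only error measured.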
